A study of Mus musculus with 24 samples.

Results

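The livers of 12 CAR-/- mice, 6 females and 6 males, were compared for their autosomal genes, in order to describe which sex differences of liver expression are present without the constitutive androstane receptor (CAR). The samples were taken by their titles, and the genes by the position of their probes on chromosomes 1 to 19. The authors' table of log2 signals holds 31343 probes, of which 29947 lie on autosomes and stand for 21122 genes or unnamed transcripts out of 22149 in the whole table. A gene with several probes was represented by its brightest autosomal probe.

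Liver RNA of 24 mice was measured on 24 one-color Agilent arrays, 1 array per mouse, with 6 CAR-/- females, 6 CAR-/- males, 6 WT females and 6 WT males. All mice had the C57 BL/6J strain background, were 16 weeks old and received a standard diet without any labelled treatment. CAR-/- mice lack CAR in the whole animal, and they came from another laboratory after backcrossing to that strain, whereas the labels describe C57 BL/6J mice bought from a breeder. Where WT mice were the bought ones, genotype and origin of the animals cannot be told apart, which concerns the comparisons with WT but not those between CAR-/- females and males. The number of arrays limits the precision of every value.

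Sex differences of the rodent liver follow the pituitary release of growth hormone, which is pulsatile in males and more continuous in females and acts on hepatocytes through the transcription factor STAT5b. Steroid and drug metabolizing enzymes, major urinary proteins and transporters are the best known genes of this kind. CAR, encoded by Nr1i3, is a nuclear receptor that responds to foreign compounds and to steroids and regulates several of the same enzyme families, with Cyp2b10 as its standard target gene.

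The labels of sex and genotype were checked first. Xist, the RNA of the inactive X chromosome, was well above background on all 6 arrays of each female group and on 0 male arrays, and the Y-linked genes Ddx3y and Eif2s3y showed the reverse. The brighter Nr1i3 probe (mm9 chr1:173148765-173148824) gave a log2 signal of 9.71 ± 0.25 (SD, n = 6) in CAR-/- females and 9.92 ± 0.12 in CAR-/- males, against 12.996 ± 0.41 in WT females and 12.04 ± 0.26 in WT males. Whether this probe lies inside the deleted part of the gene is not given in the sources used here. Its female minus male difference was -0.21 ± 0.15 (SE) in CAR-/- livers (adjusted p = 0.35). The CAR-/- arrays lay on 3 slides, each with 2 females and 2 males, and between 29675 and 34656 probes per array were well above background. The WT arrays lay on 4 slides. Slide 4 held WT arrays alone, those of female replicates 2 and 5 and male replicate 5. Slide and genotype are thus partly mixed in the comparisons with WT. In a principal component analysis of the 12 CAR-/- arrays the first component carried 60.6% of the variance and separated the sexes. The liver samples contain every cell type of the organ, so that fewer cells of a type and less RNA per cell cannot be told apart.

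Several of the genes with the largest differences belong to families of near-identical members, and the probe sequences show how closely they resemble each other. Below are windows of the array probes for 3 sulfotransferases that lie beside each other on mouse chromosome 7 (mm9), with the positions at which the windows differ in capitals.
Sult2a1: ttgttGtGtatcttgaatacctAGatGtgg
Sult2a2: ttgttCtAtatcttgaatacctGAatAtgg
Sult2a4: ttgttCtGtatcttgaatacctAGatGtgg
The whole Sult2a1 and Sult2a2 probes were identical at 54 of 59 shared bases, and those of Sult2a1 and Sult2a4 at 51 of 54. The probes of Cyp3a44 and Cyp3a41b were identical at 46 of 53 shared bases. Signal of such a probe can come from the neighbouring gene, so that values within the Sult2a and Cyp3a groups belong to the group more surely than to 1 member.

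Promoters were read from RefSeq (GRCm38.p6) for the genes with the largest differences, as windows of 300 bases that begin upstream of the annotated start and run past it. They were searched for TTCNNNGAA, the consensus of STAT5 binding, which reads the same on both strands. A promoter was in the table for 16 of 23 genes with the largest differences, and 4 of these 16 held the motif, in the order of their differences Slc22a26 (TTCAGGGAA), Sult3a1 (TTCTTTGAA), A1bg and Moxd1. The first 4 windows below belong to the 2 genes with the largest difference in each direction that the table covers, Sult2a6 and Cyp3a44, higher in females, and Hsd3b5 and Nat8f5, higher in males. None of these 4 windows holds the motif. A1bg, higher in females, and Moxd1, higher in males, were added after their match was seen, since both hold the same 9 letters (in capitals) while their differences run in opposite directions.
Sult2a6, chr7:14254821-14255120, minus strand: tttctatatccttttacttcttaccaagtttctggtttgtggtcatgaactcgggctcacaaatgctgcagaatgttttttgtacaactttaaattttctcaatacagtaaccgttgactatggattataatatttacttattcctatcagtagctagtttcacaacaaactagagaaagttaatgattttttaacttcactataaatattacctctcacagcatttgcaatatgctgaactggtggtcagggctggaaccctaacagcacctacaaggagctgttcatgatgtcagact
Cyp3a44, chr5:145805825-145806124, minus strand: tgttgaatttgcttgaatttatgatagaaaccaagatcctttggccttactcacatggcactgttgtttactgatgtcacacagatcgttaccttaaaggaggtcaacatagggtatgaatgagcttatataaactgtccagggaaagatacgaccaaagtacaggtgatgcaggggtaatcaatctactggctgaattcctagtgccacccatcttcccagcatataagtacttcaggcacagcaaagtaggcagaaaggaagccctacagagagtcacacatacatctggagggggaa
Hsd3b5, chr3:98645485-98645784, minus strand: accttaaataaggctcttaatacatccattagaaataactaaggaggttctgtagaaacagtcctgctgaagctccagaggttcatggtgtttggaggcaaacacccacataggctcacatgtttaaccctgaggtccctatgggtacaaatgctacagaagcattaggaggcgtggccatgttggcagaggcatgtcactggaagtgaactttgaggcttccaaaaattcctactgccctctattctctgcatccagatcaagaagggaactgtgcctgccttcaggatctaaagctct
Nat8f5, chr6:85820923-85821222, minus strand: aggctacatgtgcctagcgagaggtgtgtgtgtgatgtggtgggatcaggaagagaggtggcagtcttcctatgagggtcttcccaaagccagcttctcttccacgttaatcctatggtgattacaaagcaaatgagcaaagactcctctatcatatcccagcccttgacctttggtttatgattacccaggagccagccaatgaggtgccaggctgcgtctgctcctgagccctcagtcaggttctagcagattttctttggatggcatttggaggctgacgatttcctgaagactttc
A1bg, chr15:60921221-60921520, minus strand: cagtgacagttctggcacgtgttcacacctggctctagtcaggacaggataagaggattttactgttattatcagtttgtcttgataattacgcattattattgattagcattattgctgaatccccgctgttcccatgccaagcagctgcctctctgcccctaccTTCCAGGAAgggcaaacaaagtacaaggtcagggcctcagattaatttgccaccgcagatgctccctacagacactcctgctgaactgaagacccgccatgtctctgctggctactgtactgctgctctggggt
Moxd1, chr10:24223267-24223566, plus strand: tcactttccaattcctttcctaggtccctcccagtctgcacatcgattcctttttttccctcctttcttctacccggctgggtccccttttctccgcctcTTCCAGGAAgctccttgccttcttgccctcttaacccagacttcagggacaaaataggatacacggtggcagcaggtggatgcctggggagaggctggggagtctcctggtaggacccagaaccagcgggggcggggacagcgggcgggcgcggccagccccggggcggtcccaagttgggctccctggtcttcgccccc
Among all genes higher in CAR-/- females, 76 of the 786 with a promoter in the table held the motif (9.67%), and among those higher in CAR-/- males 24 of 306 (7.84%). The share over all 11644 autosomal genes with a promoter was 7.51%. A match is a description of these letters, and nothing follows from its presence or absence for binding.

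A gene was called when its adjusted p was under 0.05 (limma, Benjamini-Hochberg over all probes of the table) and its fold difference above 1.5. In CAR-/- livers 1151 autosomal genes were higher in females, which is 5.45% of those tested, and 573 were higher in males (2.71%). The corresponding counts in WT livers were 827 (3.92%) and 606 (2.87%). Genes higher in females thus made up 66.8% of the called genes without CAR and 57.7% in WT. These shares depend on the fold minimum, since without it they were 50.7% (2634 and 2562 genes) and 51.4% (2466 and 2328 genes). On the scanner's processed intensity they were 57.9% (1573 and 1145 genes) and 54.7%. Of the 1724 called genes 1459 carry a name found in RefSeq and 1397 are protein coding. In 916 of the genes higher in females and 399 of those higher in males the 6 female and the 6 male arrays did not overlap. The call itself favours such a separation, and the share over all autosomal genes was not counted.

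The differences were mostly small. In CAR-/- livers 629 of the genes higher in females differed by 1.5 to 2-fold and 451 by 2 to 4-fold, against 582 and 167 in WT. The classes above 4-fold held 71 genes higher in CAR-/- females and 49 higher in CAR-/- males. Above 16-fold there were 19 and 14 genes. The median difference, females minus males on the log2 scale, was 0.94 over the genes called higher in CAR-/- females and -0.86 over those higher in CAR-/- males, beside -0.03 over all autosomal genes. The genes nearest to the fold threshold differed by 1.5001-fold just inside and 1.4991-fold just outside for females, and by 1.5001-fold and 1.4966-fold for males.

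**Figure D1:**
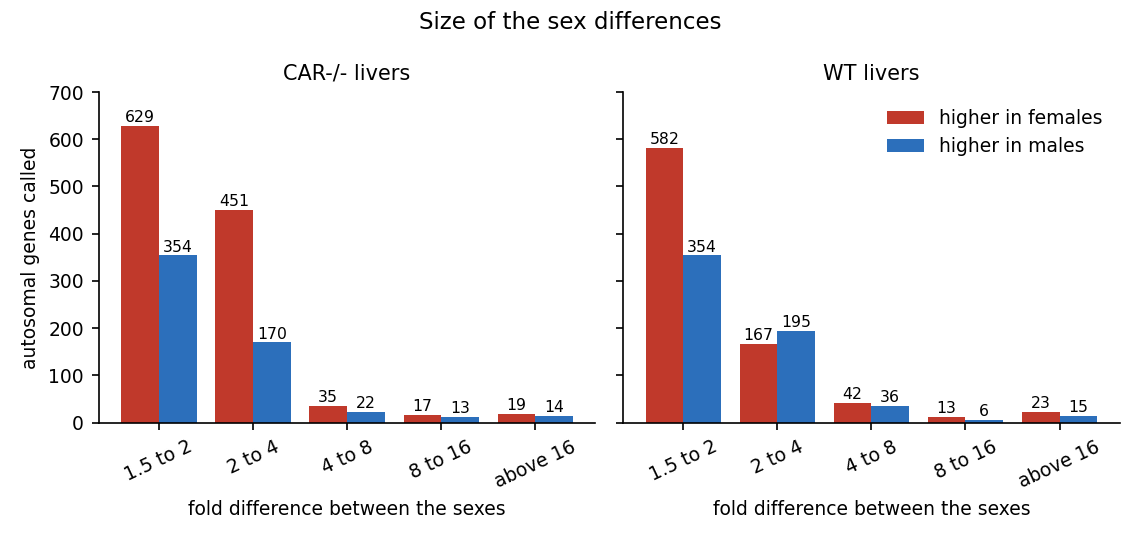
Number of autosomal genes called (y axis) by the fold difference between the sexes (x axis), in CAR-/- livers (left) and WT livers (right), with genes higher in females in red and higher in males in blue. The 2 to 4-fold class held 451 genes higher in females in CAR-/- livers and 167 in WT livers, and above 4-fold the classes held 71 genes higher in females and 49 higher in males in CAR-/- livers.

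Called genes lay on every autosome. The share ran from 6.42% of the genes of chromosome 12 to 12.3% of those of chromosome 19, where 64 of 724 genes were higher in CAR-/- females and 25 higher in males. Chromosome 19 carries the Cyp2c genes and several Slc22a transporters. Of 453 called genes with more than 1 autosomal probe, 213 had all their probes called in the same direction. Over all autosomal genes 2 had probes called in opposite directions. One of these 2 was Cyp2c54, with 1 probe higher in females and 2 higher in males.

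Most genes biased in WT livers had a difference of the same sign without CAR, and the majority passed the same thresholds there. Of the 827 genes higher in WT females, 510 (61.7%) were also called higher in CAR-/- females, 315 were not called and 2 were called in the opposite direction. Of the 606 genes higher in WT males, 379 (62.5%) were called higher in CAR-/- males, 227 were not called and 0 were opposite. The sign of the difference was the same in CAR-/- livers for 797 of the 827 (96.4%) and for 596 of the 606 (98.3%). The sizes were similar too, with a median of 0.80 in WT and 0.81 without CAR for the genes higher in WT females, and of -0.87 and -0.73 for those higher in WT males.

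Missing the threshold without CAR was seldom a tested difference between the genotypes. Among the 315 genes higher in WT females and not called in CAR-/- livers, 108 still passed the adjusted p and missed the fold, and the test of the difference between the sex differences (the interaction of sex and genotype) passed for 8. Among the corresponding 227 genes higher in WT males 101 passed the adjusted p, and 7 passed the interaction test. Of the genes above 4-fold in WT, 63 of 78 were also called in CAR-/- females and 56 of 57 in CAR-/- males.

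Read from the CAR-/- side, 510 of the 1151 genes higher in females (44.3%) and 379 of the 573 higher in males (66.1%) were called in the same direction in WT. The 641 genes called in CAR-/- females and not in WT had a median difference of 0.83 without CAR and 0.38 in WT, and 42 of them passed the interaction test. The 192 genes called in CAR-/- males and not in WT had medians of -0.69 and -0.36, and 10 passed that test. Choosing genes by a call in 1 genotype alone sets in advance which median is larger. The reverse choice, the 315 genes called in WT females alone, had medians of 0.74 in WT and 0.37 without CAR. For the 227 genes called in WT males alone they were -0.72 and -0.47. Over all autosomal genes the interaction passed for 55 genes with a difference shifted toward females without CAR (0.26%) and for 30 shifted toward males (0.142%), and 2419 genes had an unadjusted p under 0.05. Leaving out single CAR-/- arrays moved these counts, from 17 (without male replicate 2) to 160 (without female replicate 2) toward females and from 16 (without female replicate 5 or male replicate 2) to 60 (without female replicate 2) toward males. Across the 21122 genes the sex differences of both genotypes had a Pearson correlation of 0.844, as a description over genes measured on the same arrays. CAR-/- and WT values share no arrays.

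The genes with the largest female bias without CAR were sulfotransferases of the Sult2a group, which sulfate bile acids and steroids. Sult2a2 had a log2 signal from 14.69 to 15.48 (median 15.22) in the 6 CAR-/- females and from 4.41 to 5.29 (median 4.75) in the 6 CAR-/- males. Its difference was 10.35 ± 0.20 (SE, adjusted p = 1.3e-22), and in WT it was at least 1156-fold higher in females. Only 1 of the 6 male arrays was well above background, and the groups lay far apart. The difference is therefore limited by the background in males, and it ran from 9.17 to 12.7 over the alternative settings. Sult2a1 ran from 13.67 to 15.54 (median 14.96) in females and from 4.41 to 5.24 (median 4.53) in males, a difference of 10.21 ± 0.29. Sult2a6 ran from 13.99 to 15.34 in females and from 4.49 to 5.32 in males, a difference of 9.996 ± 0.25. These 2 genes were also well above background on 1 of 6 male arrays, so that the order of the 3 genes is not fixed. Sult2a4 was well above background on 0 of 6 male arrays and was at least 231-fold higher in females, whose signals ran from 11.37 to 13.40. That bound compares the female mean with the mean over the male arrays of the weakest signal still well above background, or of the probe's own signal where it was higher. Sult3a1, a sulfotransferase of another branch, was at least 96.8-fold higher in females on the same basis.

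Cytochromes P450 of the Cyp2b and Cyp3a subfamilies, which oxidize drugs and steroids, followed. Cyp3a44 had signals from 12.79 to 14.23 (median 13.49) in CAR-/- females and from 4.43 to 5.14 (median 4.96) in CAR-/- males, a difference of 8.63 ± 0.21 (adjusted p = 1.5e-20), with 1 of 6 male arrays well above background. Cyp2b10, the standard CAR target, ran from 14.42 to 15.25 (median 15.00) in CAR-/- females and from 4.70 to 8.56 (median 6.23) in CAR-/- males, a difference of 8.45 ± 0.47 (adjusted p = 1.2e-12). The sex difference of Cyp2b10 was therefore present without CAR, and its interaction with genotype was -1.11 ± 0.66 (adjusted p = 0.61). The difference without CAR ran from 7.84 to 9.48 over the alternative settings, so that its exact size is not fixed. Male replicates 2 and 3, with signals of 8.45 and 8.56, were the 2 highest males for this gene. Cyp2b13 was at least 213-fold higher in females. Cyp2b9 ran from 10.36 to 11.38 in females and from 4.58 to 5.77 in males, a difference of 5.95 ± 0.18. It was well above background on 2 of 6 male arrays, and its difference ran from 4.99 to 8.41 over the alternative settings.

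Other female-biased genes of this size had varied roles. Slc22a26, a transporter of organic anions, ran from 11.22 to 12.84 in females and from 4.43 to 5.70 in males, a difference of 6.98 ± 0.25 with 3 of 6 male arrays well above background. A1bg, a plasma glycoprotein of the immunoglobulin family, was at least 42.4-fold higher in females. Its signals spread widely among CAR-/- females, from 7.96 to 11.98 with a median of 10.29, yet all lay above the highest male at 4.52.

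The largest male bias was that of Cyp4a12b and Cyp4a12a, which hydroxylate fatty acids. Cyp4a12b ran from 14.20 to 14.58 (median 14.35) in the 6 CAR-/- males and from 4.79 to 4.97 (median 4.94) in the 6 CAR-/- females, a difference of -9.49 ± 0.14 (adjusted p = 2.9e-25). Cyp4a12a differed by -8.89 ± 0.12. The females were well above background on 2 and 4 of 6 arrays. Both groups were narrow for these genes, and the WT differences were -9.08 and -8.58. The 2 genes are close paralogs, so that their signals may not be separate. Their probes were identical at 21 of 40 shared bases at best, and whether a probe also binds the other transcript was not tested. Elovl3, which elongates long fatty acids, ran from 13.93 to 14.58 in males and from 5.95 to 7.09 in females, a difference of -7.64 ± 0.18 beside -7.70 in WT.

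For 3 male-biased genes all CAR-/- females lay below all WT females while the males of both genotypes overlapped, and the interaction passed for Slco1a1 alone. Hsd3b5, a steroid dehydrogenase, ran from 4.997 to 5.80 (median 5.21) in CAR-/- females, from 6.10 to 8.72 (median 7.95) in WT females, from 13.26 to 14.50 in CAR-/- males and from 13.77 to 14.19 in WT males. Its difference was -8.49 ± 0.33 without CAR and -6.44 in WT, and the interaction missed the threshold (adjusted p = 0.058). Slco1a1, an uptake transporter of organic anions, ran from 5.02 to 6.77 (median 5.94) in CAR-/- females and from 7.39 to 9.50 (median 8.50) in WT females, with CAR-/- males from 11.71 to 12.51 and WT males from 12.19 to 12.48. Its difference was -6.22 ± 0.35 without CAR and -3.92 in WT, with an interaction of -2.30 ± 0.50 (adjusted p = 0.040). That interaction passed in 6 of 21 alternative settings (adjusted p from 0.028 to 0.12). Serpina4-ps1, a pseudogene of the serine protease inhibitors, ran from 5.85 to 10.64 (median 8.98) in CAR-/- females, from 10.92 to 14.52 (median 12.04) in WT females, from 14.37 to 16.06 in CAR-/- males and from 14.40 to 17.10 in WT males, a difference of -6.51 ± 0.68 beside -2.85 in WT (interaction adjusted p = 0.084).

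Nat8f5 and Nat8, which belong to the N-acetyltransferase family, differed by -6.34 ± 0.26 and -5.02 ± 0.19. Tff3, a secreted trefoil peptide, ran from 10.63 to 13.45 (median 12.88) in CAR-/- males and from 5.97 to 9.41 (median 7.002) in CAR-/- females, a difference of -5.43 ± 0.50. The RefSeq gene E030018B13Rik differed by -4.38 ± 0.45. In all 4 of these genes the sexes did not overlap.

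Moxd1 and Cfd, among the largest male-biased genes, varied much among CAR-/- males. Moxd1, a monooxygenase of the dopamine hydroxylase family, had signals of 5.34, 5.82, 8.56, 10.67, 12.11 and 13.36 in the 6 CAR-/- males, from 4.25 to 4.74 in CAR-/- females and from 12.08 to 14.06 in WT males. It was well above background on 0 female arrays in either genotype. Males exceeded females at least 23.7-fold without CAR (adjusted p = 3.3e-04) and at least 281-fold in WT. Replicates 2 and 3, the males with the highest Cyp2b10, had the lowest Moxd1. Cfd, the complement factor adipsin, ran from 6.404 to 11.33 (median 10.09) in CAR-/- males and from 4.70 to 5.49 in CAR-/- females, a difference of -4.66 ± 0.65 (3 of 6 female arrays well above background) beside -2.05 in WT (interaction adjusted p = 0.23). The highest 3 males were replicates 2, 3 and 4.

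**Figure D2:**
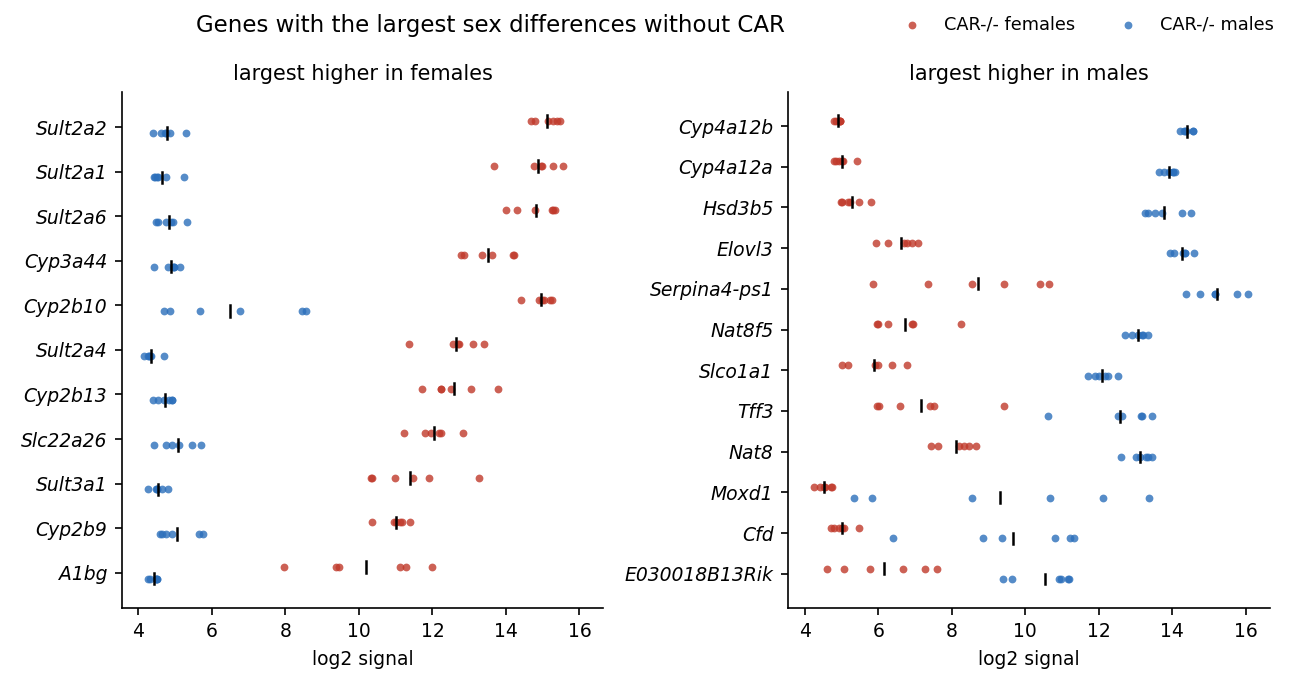
Log2 signal (x axis) of 11 genes with large differences higher in females (left) and 12 higher in males (right) among those whose sexes do not overlap, with 1 point per CAR-/- female (red) or male (blue) and a black bar at each mean of 6. Moxd1, Cfd and Cyp2b10 show the widest spread among males, and A1bg and Serpina4-ps1 among females.

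Gene lists of liver pathways give the wider picture, and they are described by counts. Over all autosomal genes 8.16% were called without CAR (5.45% higher in females and 2.71% higher in males), and in WT 3.92% were higher in females and 2.87% higher in males. Of 42 measured genes held to be female-biased in the liver, 36 were called higher in CAR-/- females, 1 (Gna14) higher in males and 5 were not called. Of 30 genes held to be male-biased, 25 were called higher in CAR-/- males and 5 were not called. The medians of these lists were 2.09 and -2.05 without CAR, beside 2.60 and -2.53 in WT.

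Among P450 enzymes the Cyp2a and Cyp2b list had 5 of 6 members higher in CAR-/- females and the Cyp3a list 5 of 8, with none higher in males. Besides the Cyp2b genes above, Cyp2a22 differed by 3.35 ± 0.24 (from 2.57 to 5.07 over the alternative settings, with 2 of 6 male arrays well above background), Cyp3a41b by 5.08 ± 0.20, Cyp3a16 by 3.02 ± 0.19 and Cyp3a59 by 1.45 ± 0.11. In WT all 8 Cyp3a genes were called higher in females. The Cyp2c list was split, with 5 of 12 higher in CAR-/- females and 3 higher in CAR-/- males. Cyp2c38 differed by 2.84 ± 0.25, Cyp2c68 by 2.22 ± 0.17 and Cyp2c67 by 1.91 ± 0.19, whereas Cyp2c54 was higher in males by -1.66 ± 0.22. Of 9 Cyp2d genes 3 were higher in CAR-/- males, led by Cyp2d9 at -3.998 ± 0.12, beside -3.95 in WT.

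In the Cyp4a list 4 of 6 members in WT were called higher in females and 2 higher in males, and in CAR-/- livers 0 and 2. Cyp4a14, an omega-hydroxylase of fatty acids that responds to PPARα, ran from 14.17 to 16.40 (median 15.96) in CAR-/- females and from 10.23 to 15.73 (median 13.80) in CAR-/- males. Its difference was 2.32 ± 0.87 (adjusted p = 0.056) without CAR and 5.35 in WT. Cyp4a10 differed by 0.91 ± 0.60 and 3.10, and Cyp4a31 by 0.89 ± 0.60 and 3.00. None of these interactions passed (adjusted p from 0.30 to 0.33), and the males overlapped the females. Male replicates 2 and 3 had the highest Cyp4a14 of the CAR-/- males, at 15.44 and 15.73.

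Of 37 genes of fatty acid oxidation 13 were higher in WT females. In CAR-/- livers 4 were (10.8%, beside 5.45% of all genes), and 0 of the 37 passed the interaction test. The 4 were Hao2 (at least 9.17-fold), Acot3 (2.74 ± 0.56, WT 5.84), Abcd2 (1.85 ± 0.20, WT 2.71) and Acot4 (0.78 ± 0.27, WT 2.19). Acot3 and Acot4 cleave acyl-CoA in peroxisomes, and Abcd2 imports fatty acids into them. The interaction of Acot3 had an adjusted p of 0.077. Of these Acot4 passed in 10 of 23 alternative settings and the others in all of them. The list's median was -0.11 without CAR and 0.43 in WT.

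Conjugating enzymes differed by family. Of 17 sulfotransferases 8 were higher in CAR-/- females and 3 in CAR-/- males. Of 20 glutathione S-transferases only Gstm2 was higher in females (0.77 ± 0.24, called in 18 of 23 alternative settings), while Gstp1 (-2.41 ± 0.23) and Gstp2 (-1.51 ± 0.18), which detoxify electrophiles, were higher in males, and in WT 7 and 2 were called. Of 14 UDP-glucuronosyltransferases 2 were higher in males, Ugt2b1 by -2.06 ± 0.13 and Ugt2b35 by -0.73 ± 0.24, which was not called without female replicate 1, male replicate 2 or male replicate 5. Among flavin monooxygenases, which oxidize drugs, Fmo2 (1.47 ± 0.17), Fmo4 (1.0997 ± 0.19) and Fmo1 (0.63 ± 0.11) were higher in females, each with a smaller difference than in WT and none passing the interaction test. Fmo5 was higher in males (-0.61 ± 0.13). Fmo1 and Fmo5 were each called in 21 of 23 alternative settings.

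Carboxylesterases, which hydrolyse esters, had 6 of 15 members higher in CAR-/- males, led by Ces2b (-2.18 ± 0.37) and Ces4a (-1.97 ± 0.31), and 2 higher in females. Hydroxysteroid dehydrogenases had 4 of 16 higher in males, Hsd3b5, Hsd3b2 (-1.31 ± 0.12), Hsd3b6 (-1.08 ± 0.13) and Hsd3b3 (-0.96 ± 0.11), and 1 higher in females. Of 11 major urinary proteins, lipocalins that carry pheromones, 6 were higher in males and 0 in females, with Mup6 at -2.61 ± 0.26 and Mup21 at -2.60 ± 0.14. These genes are near-identical copies, so that their probes may share signal. Of 26 organic anion and cation transporters 4 were higher in females, including Slc22a27 (5.47 ± 0.18) and Slc22a29 (3.42 ± 0.19, with 3 of 6 male arrays well above background), and 2 in males. In the Serpina list 4 of 19 were higher in each sex, with Serpina9 (-2.61 ± 0.39) and Serpina12 (-1.88 ± 0.28) among those higher in males.

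In bile acid metabolism 3 of 27 genes were higher in CAR-/- females, the hydroxylase Cyp39a1 (1.18 ± 0.13) and the exporters Abcc4 (0.94 ± 0.17) and Slc51b (0.88 ± 0.29). Cyp7b1, which hydroxylates oxysterols, was higher in males, running from 12.82 to 15.42 (median 14.21) in CAR-/- males and from 10.15 to 10.85 (median 10.64) in CAR-/- females, a difference of -3.67 ± 0.27 beside -4.55 in WT. In cholesterol synthesis 1 of 22 genes was called, Sqle (1.11 ± 0.39, adjusted p = 0.042), which passed in 11 of 23 alternative settings. Of 20 genes of glucose metabolism, Gys2 (-0.66 ± 0.13) and Pfkfb3 (-1.04 ± 0.35) were higher in males. Of 18 clock genes 1 was called, Nr1d2 (-0.69 ± 0.25, adjusted p = 0.043). The calls of Slc51b, Pfkfb3, Gys2 and Nr1d2 passed in 14, 18, 21 and 11 of the 23 settings.

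Lipid synthesis and storage had 5 of 36 genes higher in CAR-/- males and 2 higher in females, beside 2 and 2 in WT. Cidec and Cidea, proteins of the lipid droplet surface, were called in CAR-/- livers and not in WT. Cidec ran from 7.23 to 10.21 (median 9.10) in CAR-/- males and from 6.06 to 7.63 (median 6.58) in CAR-/- females, a difference of -2.23 ± 0.44 beside -0.24 in WT. Cidea differed by -1.98 ± 0.34 without CAR. No WT female array was well above background for it, and WT males exceeded WT females at least 1.51-fold. The interactions of both missed the threshold (adjusted p = 0.15 and 0.23, the latter resting on WT females at background), and the 3 males highest for Cidec were replicates 2, 3 and 4, as for Cfd. Vldlr, a lipoprotein receptor, was higher in females by 2.67 ± 0.32.

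**Figure D3:**
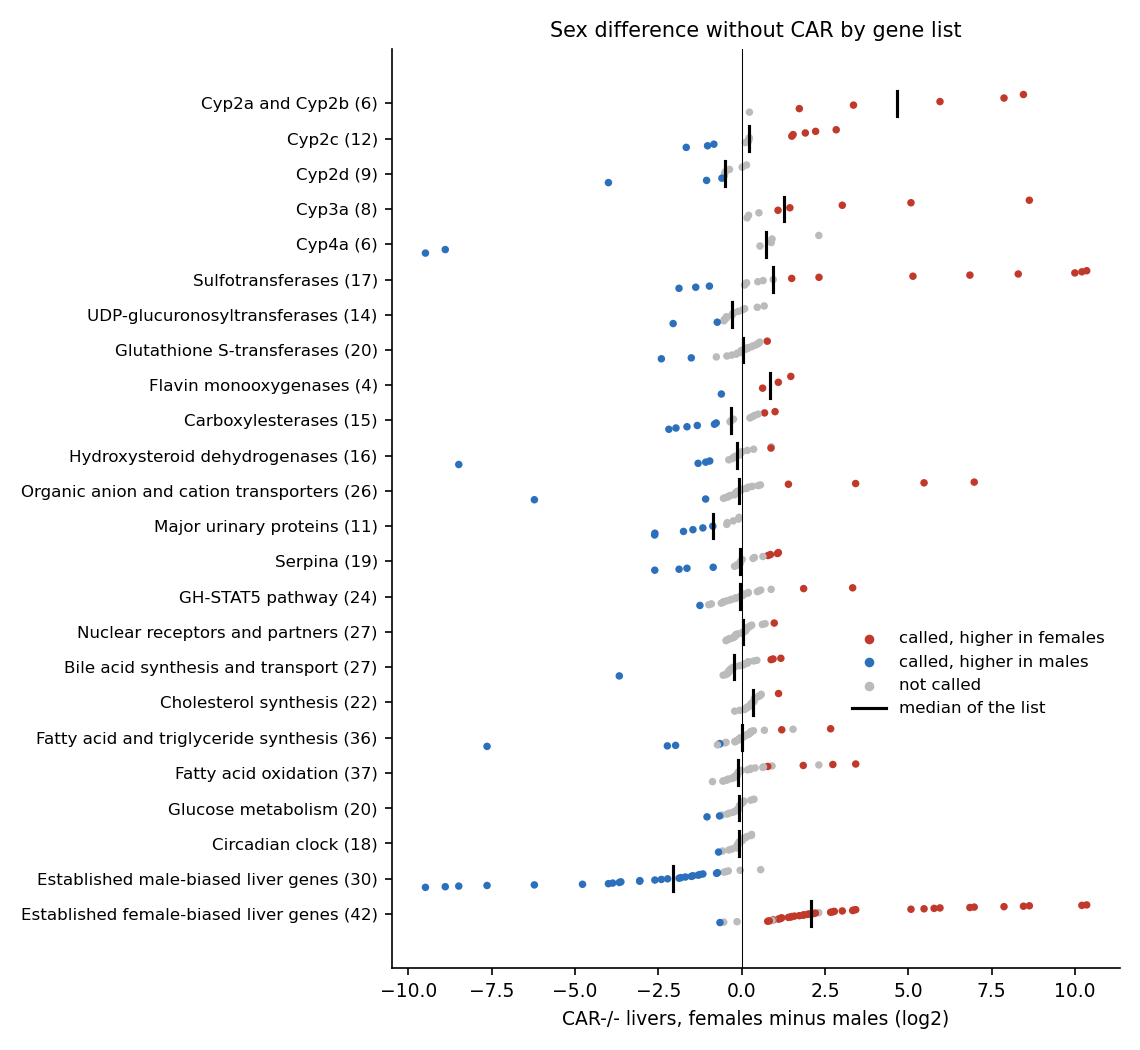
Female minus male difference in log2 signal without CAR (x axis) for each measured member of 24 gene lists (y axis, number of measured members in parentheses), with called members in red (higher in females) or blue (higher in males), others in gray and a bar at the median of the list. The lists of established female-biased and male-biased genes have medians of 2.09 and -2.05, while most other lists have medians near 0.

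The growth hormone pathway was examined by its own list, which held 24 measured genes. In CAR-/- livers 2 were called higher in females and 1 higher in males, and in WT 6 and 2. Cux2, a transcription factor that represses male-biased genes, ran from 7.26 to 9.13 (median 8.51) in CAR-/- females and from 4.90 to 5.197 (median 5.03) in CAR-/- males, with 3 of 6 male arrays well above background. Its difference was 3.33 ± 0.27 (adjusted p = 2.1e-09), and 3.98 in WT. Prlr, the prolactin receptor, differed by 1.86 ± 0.20 beside 2.61 in WT, and Egfr, the epidermal growth factor receptor, by -1.25 ± 0.36 beside -1.09.

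Bcl6, a repressor that competes with STAT5 and is male-biased in WT livers, was not called without CAR. Its signals ran from 9.72 to 12.27 (median 11.70) in CAR-/- females and from 9.27 to 12.78 (median 10.66) in CAR-/- males, which overlap throughout. In WT they ran from 8.79 to 11.96 (median 10.04) in females and from 12.65 to 13.53 (median 13.06) in males, which do not overlap. The difference was 0.57 ± 0.54 (adjusted p = 0.49) without CAR and -2.88 in WT, and the interaction was 3.45 ± 0.77 (adjusted p = 0.047). It passed in 7 of 21 alternative settings, with adjusted p from 0.019 to 0.086.

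Cish and Socs2, feedback inhibitors that STAT5 induces, are named here after their values were seen. Cish was higher in WT females by 2.20, and differed by -0.99 ± 0.76 (adjusted p = 0.37) without CAR. Socs2 differed by 1.78 in WT and by -0.45 ± 0.53 (adjusted p = 0.58) without CAR. The interactions missed the threshold in both (adjusted p = 0.20). The receptor Ghr and the transcription factor Stat5b were not called in either genotype, with differences of -0.35 for Ghr and 0.07 for Stat5b without CAR. Of 27 nuclear receptors and partners only Esr1, the estrogen receptor, was called, running from 9.43 to 9.84 in CAR-/- females and from 8.49 to 8.82 in CAR-/- males, a difference of 0.98 ± 0.11 beside 0.74 in WT.

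Among the 85 genes whose sex difference itself differed between the genotypes, the largest shift toward females after Bcl6 was that of Marco, a scavenger receptor of macrophages. Marco ran from 11.60 to 14.94 (median 12.41) in CAR-/- females and from 7.76 to 10.79 (median 9.31) in CAR-/- males, without overlap, and from 9.92 to 10.67 and from 9.43 to 10.89 in WT females and males. The difference was 3.55 ± 0.51 without CAR and 0.22 in WT, with an interaction of 3.33 ± 0.73 (adjusted p = 0.043) that passed in 10 of 21 alternative settings (adjusted p from 0.023 to 0.089). Cyp2c38 showed a narrow group of CAR-/- females, from 13.48 to 13.71, against CAR-/- males from 9.02 to 11.47 and WT males from 13.13 to 13.58. Its interaction was 1.93 ± 0.36 (adjusted p = 0.016), passing in 20 of 21 settings. C6, a male-biased complement component, had a smaller difference without CAR, -3.06 ± 0.19 beside -4.54, with an interaction of 1.48 ± 0.27 (adjusted p = 0.016).

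Slco1a1 had the largest shift toward males. Pcp4l1, a small calmodulin-binding protein, ran from 5.87 to 6.22 in CAR-/- females and from 5.27 to 5.78 in CAR-/- males, and from 10.51 to 12.19 and from 8.33 to 9.36 in WT females and males. Its difference was 0.58 ± 0.22 (adjusted p = 0.055) without CAR and 2.74 in WT (interaction -2.16 ± 0.30, adjusted p = 0.0014). Its probe lies at mm9 chr1:173103423-173103482, close to Nr1i3 on the same chromosome. Ifi202b, an interferon-inducible gene also on chromosome 1 (mm9 chr1:175892953-175893982), ran from 9.07 to 9.62 in CAR-/- females and from 7.57 to 8.42 in CAR-/- males, and was well above background on 0 WT arrays. Its difference was 1.37 ± 0.12 without CAR. A sex difference in WT was not measured for this gene, so that no change of it between the genotypes can be read. Whether sequence around Nr1i3 from the origin of the knockout takes part in these 2 results was not tested.

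Cyp2c54 was not called in WT, at 13.94 to 15.70 in females and 14.79 to 15.21 in males, and higher in males without CAR, at 10.86 to 12.07 and 12.995 to 13.42. The interaction was -1.85 ± 0.31 (adjusted p = 0.0094), although another probe of the gene was called higher in CAR-/- females. Gpx6, a glutathione peroxidase, ran from 6.52 to 8.30 (median 7.45) in CAR-/- males and from 5.33 to 6.11 in CAR-/- females, with a difference of -1.77 ± 0.26 beside 0.01 in WT. Its interaction (adjusted p = 0.032) passed in 13 of 21 settings. The predicted gene Gm2568 was the only named gene called in opposite directions, at -0.71 ± 0.13 without CAR and 0.65 in WT (interaction adjusted p = 0.0014), and a probe without a gene name (A_55_P2072925) was the other, at -1.08 ± 0.31 and 1.19.

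Several genes with large WT differences were not called without CAR, and their interactions missed the threshold. Among genes higher in WT females these were the Cyp4a genes above, Acot5, an acyl-CoA thioesterase (2.98 in WT, 0.56 ± 0.45 without CAR, interaction adjusted p = 0.087), and Akr1c18, which inactivates progesterone (2.78 and 0.68 ± 0.36, adjusted p = 0.064). Among genes higher in WT males they were Pnpla5, a lipase (-1.87 and 0.05 ± 0.51), the heat shock gene Hspa1a (-1.70 and -0.63 ± 0.34), the myosin Myh2 (-1.69 and -0.99 ± 0.37) and the steroid hydroxylase Cyp21a1 (-1.48 and -0.57 ± 0.30). For these 4 the interaction had an adjusted p of 0.27, 0.39, 0.73 and 0.43.

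Genes called in CAR-/- livers and not in WT, with the largest differences, were Mt2, a metallothionein (3.63 ± 1.14, adjusted p = 0.023, WT 2.28), Marco, S100a9 (3.41 ± 0.64, WT 1.49), Pip5k1a, a lipid kinase (3.17 ± 0.92, WT 1.498), and Lcn2 (3.13 ± 1.04, adjusted p = 0.031, WT 1.42). The females and males overlapped for all of them except Marco. Mt2 passed in 20 and Lcn2 in 17 of 23 alternative settings, and both missed without female replicate 4, male replicate 5 or male replicate 6. The CAR-/- female with the highest Mt2 (18.17), Pip5k1a (16.54) and Lcn2 (16.74) was replicate 4 in each case. For Pip5k1a 1 of 3 probes was called. Higher in males were Cidec, Cidea, Prok1, a secreted prokineticin (-1.77 ± 0.35, WT -0.87), Gpx6 and Cyp2c54. The interactions of Mt2, S100a9, Pip5k1a, Lcn2 and Prok1 missed the threshold, so that a sex difference gained without CAR is not shown for them.

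Markers of the other cell types of the liver were counted in full beside the genes above, and the lists differed in how many members were called in CAR-/- livers. Of 11 Kupffer cell and macrophage markers 10 were called higher in CAR-/- females, Cd163 being the one that was not. Their mean log2 signal ran from 11.1 to 12.2 in CAR-/- females and from 8.83 to 10.01 in CAR-/- males, without overlap, and the difference of the means was 1.89, beside 0.80 in WT. Besides Marco, the largest members were Cd5l, a secreted macrophage protein (2.17 ± 0.23, WT 1.03), and the complement subunits C1qa (2.00 ± 0.21, WT 1.11) and C1qb (1.95 ± 0.20, WT 0.98). The interactions of Cd5l, C1qa and C1qb missed the threshold (adjusted p from 0.12 to 0.18).

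Interferon response genes had 9 of 12 members called higher in CAR-/- females. Their mean signal ran from 9.07 to 9.46 in CAR-/- females and from 8.10 to 8.69 in CAR-/- males, a difference of 0.82 beside 0.26 in WT. Oas1a, an antiviral synthetase, ran from 11.58 to 12.23 and from 10.20 to 10.74, a difference of 1.36 ± 0.17 beside 0.27 in WT, and its interaction of 1.09 ± 0.24 passed (adjusted p = 0.044), as did that of Oasl2 (0.95 ± 0.21, adjusted p = 0.045). These interactions passed in 7 and 8 of 21 alternative settings, with adjusted p up to 0.13. Mx1 and Ifit3 differed by 0.97 ± 0.13 and 0.96 ± 0.17.

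Monocyte and neutrophil markers had 6 of 9 members higher in CAR-/- females, with means from 8.11 to 10.13 in females and from 7.57 to 8.22 in males, which overlap. S100a9, a calcium-binding protein of neutrophils, ran from 7.88 to 12.45 (median 10.99) in CAR-/- females and from 6.53 to 8.38 (median 7.10) in CAR-/- males. Acute phase genes had 2 of 10 members called, Lcn2 and Saa3 (1.16 ± 0.35, not called without female replicate 4), and the mean of the list ran from 13.9 to 16.4 in CAR-/- females and from 13.6 to 14.5 in CAR-/- males. Proliferation genes had 2 of 8, Mki67 (1.38 ± 0.30) and Ccna2 (0.76 ± 0.15), and stellate cell genes 3 of 10, the collagens Col1a1, Col3a1 and Col1a2 (0.91, 0.80 and 0.68). The means of the acute phase, proliferation and stellate lists differed by 0.94, 0.49 and 0.44, beside -0.15, -0.11 and 0.14 in WT. Endothelial markers had 5 of 10, led by Cdh5 (1.07 ± 0.14) and Lyve1 (0.95 ± 0.27), with a difference of the means of 0.55 beside 0.48 in WT.

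Lymphocyte markers had 1 of 7 members called for B cells (Cd79b, 1.19 ± 0.21), with a difference of the means of 0.36 beside 0.42 in WT. For T and NK cells 4 of 8 were called and the means differed by 0.34 beside 0.37 in WT, with Gzma (1.23 ± 0.23), Cd3g (0.82 ± 0.15) and Cd3d (0.78 ± 0.19) higher in females and Cd4 (-0.68 ± 0.24, called in 10 of 23 alternative settings) higher in males. Of the 2 Cd4 probes 1 was called, and the other differed by -0.20. Of 9 cholangiocyte markers Prom1 was higher in females (2.21 ± 0.39) and Cldn7 in males (-1.06 ± 0.30, with 1 of 6 female arrays well above background). Of 3 adipocyte markers in the table Cfd was higher in males and Fabp4 in females (0.63 ± 0.18, called in 19 of 23 alternative settings), and the mean of the 3 differed by -1.43 beside -0.65 in WT. The sign of that mean rests on Cfd alone, at -4.66 without CAR and -2.05 in WT. Of 3 pancreatic acinar markers Ctrb1 was higher in males (-0.72 ± 0.22), with 1 male, replicate 6, at 9.23 and the others from 7.31 to 7.90, and without that mouse the difference was -0.47 and not called. None of the 3 red blood cell markers was called. The 9 hepatocyte markers, among them albumin and transthyretin, had 0 calls and a difference of the means of 0.0017, with ranges of 16.8 to 17.1 in CAR-/- females and 16.9 to 17.0 in CAR-/- males. The part of cell type markers in the counts of genes higher in CAR-/- females was not tested.

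**Figure D4:**
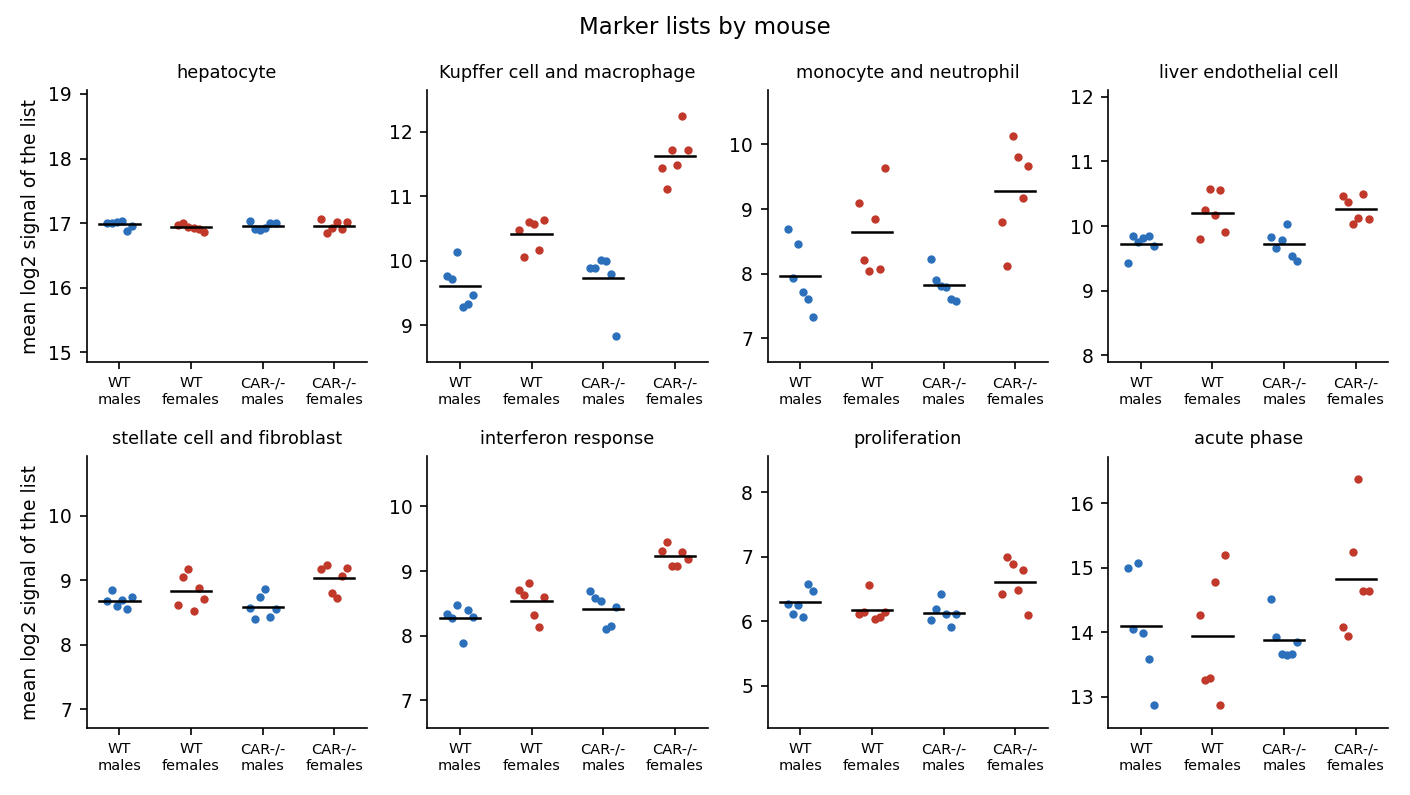
Mean log2 signal (y axis, a range of equal length in each panel) of 8 marker lists in each mouse, with WT and CAR-/- males in blue, females in red and a bar at the mean of the 6 mice of each group (x axis). CAR-/- females lie above all other groups for the Kupffer cell and interferon lists, and the 4 groups coincide for the hepatocyte list.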

How the data were processed

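Liver RNA of 24 mice was labelled with Cy3 and hybridized to 24 one-color Agilent arrays, read with Agilent Feature Extraction 10.10.1.1 as the submitters' processing notes give it. The authors deposited a table of log2 signals, made from raw median intensities by filtering, log2 transformation and quantile normalization, and it was used as the main measurement. Its array medians ran from 7.379 to 7.386, and each column ranked probes like that array's median intensity (Spearman at least 0.99999). They also deposited scanner intensities for every array without normalization between arrays, with a flag for probes well above background. Per the file headers, probe positions are on mm9. Groups and replicate numbers were taken from the sample titles.

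Probes on chromosomes 1 to 19 were kept, with the brightest probe standing for a gene. One limma model (limma 3.58.1, R 4.3.3) with 4 group means over all 31343 probes gave the sex difference in each genotype and their interaction, with Benjamini-Hochberg adjustment over all probes. A call needed an adjusted p under 0.05 and a fold above 1.5, and the interaction the adjusted p alone. Of 21122 autosomal genes 14842 matched RefSeq, and the others were counted and not named, except 1 probe called in opposite directions. A fold is given as "at least" where 1 sex was not well above background on any of its 6 arrays. The calculation was tested on simulated data. Tests measure the spread between mice.

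Named were Nr1i3 and Cyp2b10, the 12 genes per direction with the largest difference and no overlap of the sexes, the 5 largest interactions per direction, up to 4 called members of each list, the 5 largest per direction called in 1 genotype alone, and genes called in opposite directions. The results of 1 gene are not reported here, and it was left out of the lists. The genes, the lists and the rule were chosen with earlier results of these data known. Alternatives were other signals (median intensity quantile normalized with and without a filter, normexp with offset 50, processed intensity scaled to the 75th percentile), slide or replicate number as a block, each slide alone, slide 4 left out, each CAR-/- array left out, the CAR-/- arrays alone, any probe of a gene, other fold minimums, eBayes with trend and the methods' t-test. Genes on the sex chromosomes were not used here. Figures were drawn with matplotlib 3.10.9.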

Additional observations from a re-analysis of the deposited data

Results flagged for a closer look

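In the CAR-/- groups 260 sets of 6 mice (130 named genes in each sex) were examined for 1 mouse apart from the other 5, and 15 sets met Dixon's criterion, where chance gives about 1 in 20. Male replicate 6 was the mouse apart in 4 of them, lowest for the macrophage genes C1qa (8.95, others from 9.91), C1qb (8.54, others from 9.37) and Cd5l (12.07, others from 12.82), and highest for the pancreatic gene Ctrb1 (9.23, others up to 7.90). Male replicate 5 was lowest for Cyp2c38 (9.02) and highest for Mup21 (16.97), replicate 2 lowest for Tff3 (10.63) and replicate 3 highest for Prlr (10.35). Among CAR-/- females, replicate 4 was lowest for Cyp4a10 (13.19) and Cyp4a31 (13.002), replicate 5 lowest for Bcl6 (9.72) and highest for Cd79b (8.72), replicate 6 highest for Cyp2d9 (11.50) and lowest for Pnpla5 (7.78), and replicate 2 lowest for C6 (9.18).

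The sex difference differed between the genotypes by limma's interaction test for 13 of the named genes (females minus males, CAR-/- minus WT, log2). Ifi202b passed as well and is left out, since both WT sexes were at background for it. Toward females these were Bcl6 (3.45), Marco (3.33), Cyp2c38 (1.93), C6 (1.48), Oas1a (1.09) and Oasl2 (0.95). Toward males they were Slco1a1 (-2.30), the unnamed probe A_55_P2072925 (-2.27), Pcp4l1 (-2.16), Cyp2c54 (-1.85), Gpx6 (-1.78), Gm2568 (-1.36) and Nr1i3 itself (-1.17). Nr1i3 is the deleted gene, with a lower signal in both CAR-/- sexes than in WT. Its interaction therefore says nothing about other genes, although it is counted among the genes shifted toward males.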

How the results depend on the processing

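The counts of genes biased without CAR were within 1.5 times the reported ones (1151 higher in females, 573 higher in males) under most alternatives. On the scanner's processed intensity 1145 genes were higher in CAR-/- males, 1288 and 1068 were higher in WT females and males, 822 and 705 stayed biased, and 26 interactions ran toward females. Under that setting females made up 57.9% of the called genes in place of 66.8%, the median difference of all autosomal genes was -0.109, and the called members of lists became 6 Cyp2d and 6 glucuronosyltransferase genes, 4 transporter, 4 bile acid and 4 fatty acid oxidation genes, 3 growth hormone pathway genes, 2 nuclear receptor, 2 clock and 2 established female-biased genes higher in males, and 0 glutathione S-transferase, 0 cholesterol, 1 carboxylesterase and 2 hydroxysteroid dehydrogenase genes higher in females. With normexp 0 clock and 0 established female-biased genes were higher in males. The other 129 of 144 list counts were within 1.5 times. Without a fold minimum 2634 and 2562 genes were called in CAR-/- livers, 2466 and 2328 in WT, and 1494 and 1324 stayed biased (females and males). Above 2-fold these were 522 and 219, 245 and 252, and 144 and 174. Within slides of 2 against 2 mice, 91 and 59 genes were called on slide 1, 546 and 230 on slide 2, and 525 and 250 on slide 3. The methods' t-test gave 3724 and 4470 genes at an unadjusted p under 0.05, and 1088 and 516 after Benjamini-Hochberg with the fold minimum.

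The interaction counts (55 toward females, 30 toward males) were the least stable. They were 25 and 16 on the unfiltered median intensity, 34 toward females with slide as a block and 17 without slide 4. Leaving out 1 CAR-/- array gave 17 to 160 toward females, with counts beyond 1.5 times without female replicates 2, 3, 4 and 5 and male replicates 1, 2 and 6. It gave 16 to 60 toward males, with such counts without female replicates 2, 3 and 5 and male replicates 1, 2, 4 and 6. The interactions of Bcl6, Marco, Slco1a1, Gpx6, Oas1a and Oasl2 missed the threshold without several single arrays and without slide 4, and that of Cyp2c38 without slide 4. Leaving out 1 array gave 1045 to 1191 genes higher in CAR-/- females, 506 to 659 higher in males, and 485 to 526 and 342 to 454 that stayed biased. A shared replicate number marks no pairing of mice in the labels. Among 6 same-numbered pairs of CAR-/- arrays 0 had a correlation above 0.1 (from -0.165 to 0.053), and with the replicate block 1143 and 610 genes were called, with 41 and 24 interactions.

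Of 118 named genes called without CAR, 93 passed in all 23 alternatives outside single slides. Acot4, Cd4, Mpo, Nr1d2, Slc51b and Sqle missed in several, Cd3d, Cd3g, Ccna2, Cldn7, Egfr, Gm2568 and Saa3 in 1 each, and Mpo, a neutrophil peroxidase, was reversed within slide 1 (-0.36). On the processed intensity the differences of genes at background in 1 sex were larger, as for A1bg (9.08), Hao2 (6.32) and Moxd1 (-8.04), given above as bounds, and for Sult2a2 (12.7) and Cyp2b9 (8.41), which were measured on some male arrays. Signal over background limits these values, and the cause of the other changes was not tested.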
